A study of Mus musculus with 8 samples.

Results

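The genes described here encode cell surface antigens by which hair follicle and epidermal stem cells are recognised or sorted: Cd34, Cd200, Cd44, Cd24a, Thy1 and Ly6a. They were chosen by name from the platform annotation, taking probe sets that carry 1 gene symbol and, per gene, the probe set with the highest mean over the 8 arrays. Of these 6 genes 5 had such a probe set, among 19938 genes with one in the whole table: Cd34 (probe set 10352905, chromosome 1), Cd200 (10439651, chromosome 16), Cd44 (10485405, chromosome 2), Cd24a (10362896, chromosome 10) and Thy1 (10584628, chromosome 9). No probe set was named Ly6a by that rule, so Ly6a, which encodes the progenitor antigen Sca-1, was not analysed here. The 5 genes all passed the filter on low values, which asked for a log2 level of at least 7.70 on at least 2 of the 8 arrays and kept 10720 genes.

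Keratinocytes came from back skin of male and female CD1 mice at 8 weeks of age, either K14Snail or wild type (WT). In K14Snail mice the transcription factor Snail is expressed under the keratin 14 promoter, which is active in basal epidermal and outer follicle keratinocytes. Cells of each genotype were separated magnetically with an antibody to CD34 or with the antibody Mts24, which binds the Plet1 product, and the 8 groups of 1 array each were K14Snail and WT cells of the CD34 positive, CD34 negative, Mts24 positive and Mts24 negative fractions. Each CD34 array held cells pooled from 11 mice and each Mts24 array cells pooled from 9 mice. The submitters' design text makes each negative fraction the control of its positive fraction. With 1 array per group, the genotypes served as replicates for a sort and the fractions as replicates for the genotype, so p-values measure the spread between these arrays and not between animals.

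CD34 is a heavily glycosylated sialomucin which in mouse skin marks the bulge, the resting stem cell region of the hair follicle, and elsewhere endothelium and blood progenitors. CD200 is an immunoglobulin-type membrane protein of follicle epithelium that sends an inhibitory signal to myeloid cells carrying its receptor. CD44 is the main receptor for the matrix polysaccharide hyaluronan and is found on basal keratinocytes as well as leukocytes. CD24 and THY1 are small glycoproteins held in the membrane by a lipid (GPI) anchor, the first found on follicle and differentiating keratinocytes, the second on T cells, including the dendritic T cells of mouse epidermis, and on fibroblasts.

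Snai1 and Plet1 followed the labels of genotype and sort. Snai1, which encodes Snail, stood at 10.84 to 11.04 (log2 level) on the 4 K14Snail arrays and at 7.86 to 8.16 on the 4 WT arrays. Plet1 was higher in Mts24 positive than in Mts24 negative cells by 3.22 ± 0.20 (log2 difference ± moderated standard error, limma adjusted p = 0.00108). Defining keratinocyte genes were bright: 7 basal epidermis markers averaged 12.45 to 12.82 over the 8 arrays. All 9 endothelial markers failed the filter, and Pecam1 (6.23 to 6.53) and Cdh5 (6.37 to 6.61) stayed far below it on every array. T cell markers were present, at a mean level of 9.43 to 10.26 in the negative fractions.

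Cd34, whose product the CD34 antibody binds, was higher in the positive fraction of both sorts; in the CD34 sort this checks the sort. In CD34 positive cells its log2 level was 13.29 in K14Snail and 13.57 in WT, against 6.27 and 6.12 in the matching CD34 negative cells. In Mts24 positive cells it was 11.56 in K14Snail and 12.12 in WT, against 10.51 and 10.03 in Mts24 negative cells. The fractions did not overlap, and their order was CD34 positive, Mts24 positive, Mts24 negative, CD34 negative. The CD34 difference was 7.24 ± 0.24 (limma adjusted p = 0.000156), with both CD34 negative arrays under the filter level, so that its size depends on the array background. The Mts24 difference was 1.57 ± 0.24 (2.98-fold, adjusted p = 0.00927). CD34 positive cells exceeded Mts24 positive cells by 1.59 ± 0.24 (3.01-fold, adjusted p = 0.0155). CD34 negative cells lay below Mts24 negative cells by a difference of -4.07 ± 0.24 (adjusted p = 0.0235), a size that again depends on the array background. CD34 and Mts24 arrays come from different mouse pools, so sort and pool cannot be told apart in these last comparisons. Each of them also holds a fraction sorted by the product of Cd34. Their direction, and the place of the CD34 fractions in the order, were fixed by that sort and are no further result. The Mts24 call was lost without the WT Mts24 negative array (1.22, adjusted p = 0.0505) or the WT Mts24 positive array (1.24, adjusted p = 0.0519). The CD34 negative against Mts24 negative call was lost without any 1 of the 6 arrays other than CD34 positive (adjusted p from 0.100 to 0.479, values from -3.72 to -4.43), and that over Mts24 positive cells without the WT CD34 positive (1.44, adjusted p = 0.0536) or the K14Snail Mts24 positive array (1.25, adjusted p = 0.0893).

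**Figure D1:**
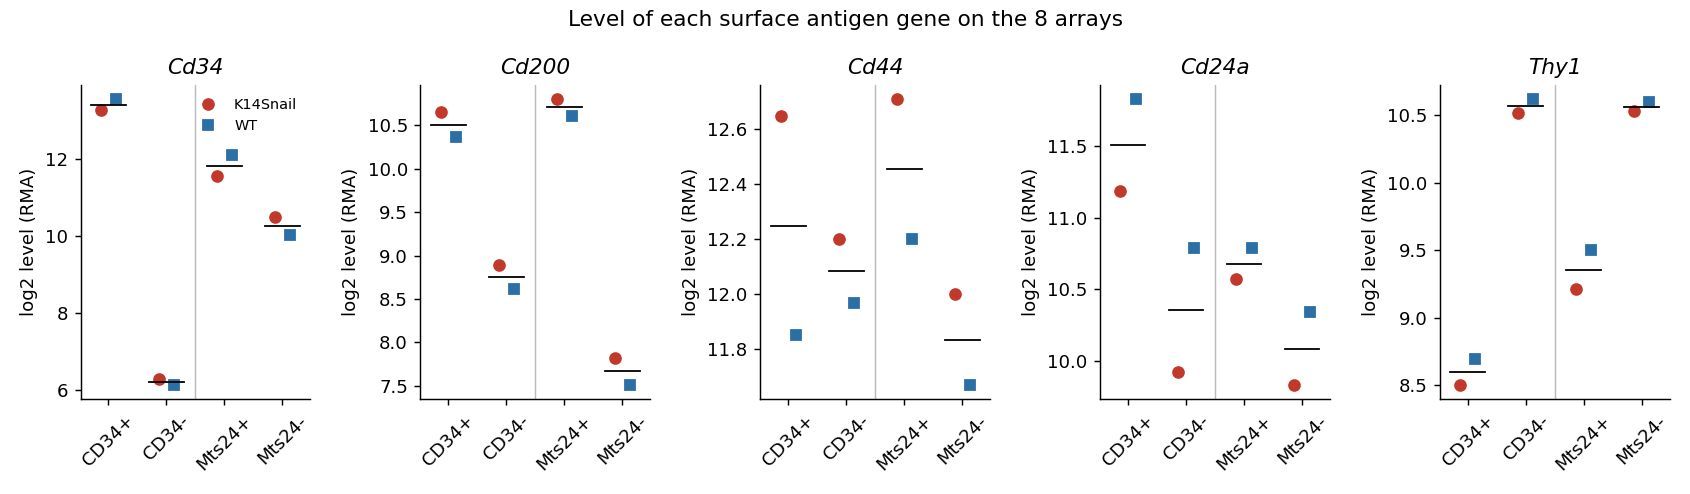
Log2 level (vertical axis, RMA values) of each antigen gene in the CD34+, CD34-, Mts24+ and Mts24- fractions; red circles are the K14Snail arrays, blue squares the WT arrays and black lines the mean of the 2. The vertical scale differs between panels. Cd34 reaches 13.29 and 13.57 in CD34+ cells, Cd200 is high in both positive fractions, and Thy1 runs the other way, at 10.52 to 10.62 in the negative fractions.

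Cd200 was higher in the positive fraction of both sorts, and here the Mts24 sort gave the larger step. CD34 positive cells held Cd200 at 10.65 in K14Snail and 10.36 in WT, and CD34 negative cells at 8.89 and 8.61. Mts24 positive cells held it at 10.80 in K14Snail and 10.61 in WT, and Mts24 negative cells at 7.82 and 7.51. Positive and negative arrays did not overlap in either sort. The CD34 difference was 1.75 ± 0.08 (3.36-fold, limma adjusted p = 0.000211), at 1.75 in the K14Snail pair and 1.74 in the WT pair. The Mts24 difference was 3.04 ± 0.08 (8.24-fold, adjusted p = 0.000227), at 2.98 and 3.10 in those pairs. The CD34 step was thus smaller than the Mts24 step by a tested difference of -1.29 ± 0.11 (adjusted p = 0.00794), the opposite of Cd34, whose CD34 step was larger by 5.66 ± 0.35 (adjusted p = 0.00449), a size that depends on its CD34 negative arrays under the filter. The positive fractions themselves differed little, with CD34 positive minus Mts24 positive at -0.21 ± 0.08 (95% interval -0.40 to -0.01, adjusted p = 0.157). The gap lay in the negative fractions, where CD34 negative cells exceeded Mts24 negative cells by 1.09 ± 0.08 (adjusted p = 0.0364). That last call was lost with quantile normalization (1.03, adjusted p = 0.0617) and without any 1 of the 6 arrays other than CD34 positive (adjusted p from 0.156 to 0.479), and the difference between the steps was lost without the WT CD34 negative (adjusted p = 0.0527) or the K14Snail Mts24 negative array (adjusted p = 0.0505).

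Markers of follicle compartments moved with these steps. Of 14 bulge markers, all tested, 13 rose in the CD34 sort (median 2.29, against -0.03 over all tested genes) and 11 rose in the Mts24 sort (median 1.17, against 0.02). Of all tested genes 13.4% rose in the CD34 sort and 12.8% in the Mts24 sort. Of 8 upper follicle markers, Plet1 among them, 0 passed in the CD34 sort (median 0.30) and 8 rose in the Mts24 sort (median 2.11). The step was larger in the CD34 sort for 5 of the 14 bulge markers and lower there for 5 of the 8 upper follicle markers, by limma. Among all tested genes it was larger there for 2.69% and lower for 2.05%. Tcf7l1 is in each of these bulge counts and reached the filter level on 4 arrays. It could pass the filter through positive fractions alone, so its rise supports nothing. Plet1 is in the upper follicle counts of the Mts24 sort and of the steps, with directions that the Mts24 antibody fixed. The mean level of the upper follicle markers was 12.34 in K14Snail and 11.73 in WT CD34 positive cells, against 11.84 and 11.75 in CD34 negative cells. It was 12.67 in K14Snail and 12.70 in WT Mts24 positive cells, against 10.48 and 10.55 in Mts24 negative cells, so that, as for Cd200, the Mts24 negative cells were the lowest fraction. The log2 summed level of the bulge markers was 15.95 in K14Snail and 16.22 in WT CD34 positive cells, against 14.34 and 14.60 in CD34 negative cells. It was 15.02 in K14Snail and 15.35 in WT Mts24 positive cells, against 14.29 and 14.34 in Mts24 negative cells. The mean level of the bulge markers was 11.76 in K14Snail and 12.00 in WT CD34 positive cells, against 9.29 and 9.31 in CD34 negative cells. In Mts24 positive cells this mean was 10.60 and 10.82, against 9.58 and 9.41 in Mts24 negative cells. Within each genotype CD34 negative cells were thus lowest by the mean and Mts24 negative cells by the sum. The part of these compartments in the Cd34, Cd200, Cd44 and Cd24a steps was not tested.

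Since Cd34 and Cd200 were both higher in both positive fractions, their promoter windows are shown, from 250 bases before to 50 after the annotated start (RefSeq, GRCm38.p6, written 5′ to 3′ on the gene's strand). Cd34 lies at chr1:194938571-194938870 on the plus strand and Cd200 at chr16:45409004-45409303 on the minus strand. Capitals mark E-boxes, CANNTG, the letters bound by Snail and other E-box factors.
Cd34: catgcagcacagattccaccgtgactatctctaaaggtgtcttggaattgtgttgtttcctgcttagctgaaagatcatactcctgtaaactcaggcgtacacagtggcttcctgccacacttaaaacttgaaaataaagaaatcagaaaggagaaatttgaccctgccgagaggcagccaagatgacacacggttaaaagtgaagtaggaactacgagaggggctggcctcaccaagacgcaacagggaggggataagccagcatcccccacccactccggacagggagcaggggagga
Cd200: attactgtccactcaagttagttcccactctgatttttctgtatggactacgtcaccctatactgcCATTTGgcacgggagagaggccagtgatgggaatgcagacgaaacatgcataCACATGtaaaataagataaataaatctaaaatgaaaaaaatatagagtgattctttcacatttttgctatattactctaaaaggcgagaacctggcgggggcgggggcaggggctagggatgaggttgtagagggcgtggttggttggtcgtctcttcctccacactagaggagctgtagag
The Cd200 window held 2 E-boxes, beginning at -184 and -132 from the start, and the Cd34 window held 0. A window of the same length for Cd44 also held 0. CANNTG was present in 72.3% of the 32851 windows in the table, searched on both strands. The form preferred by Snail, CAGGTG or its complement CACCTG, is a subset of these letters, was present in 20.2% of windows and was in none of the 3 windows of Cd34, Cd200 and Cd44. Nor did these 3 windows hold the TCF/LEF core CTTTGA (16% of windows) or the LIM homeodomain core TAATTA (5.29% of windows), each also searched on both strands. A match is a description of the letters in this window only.

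Cd24a was the other gene that was higher in CD34 positive cells. It stood at 11.19 in K14Snail and 11.83 in WT CD34 positive cells, and at 9.92 and 10.79 in CD34 negative cells. In Mts24 positive cells it stood at 10.57 in K14Snail and 10.79 in WT, and in Mts24 negative cells at 9.83 and 10.34. Within each genotype the positive array was above the negative one in both sorts, and CD34 positive cells were the highest fraction. The CD34 difference was 1.16 ± 0.16 (2.23-fold, limma adjusted p = 0.00458, 2 of 2 pairs). The Mts24 difference was 0.59 ± 0.16 (1.51-fold, adjusted p = 0.0425, 2 of 2 pairs), and the 2 steps did not differ by the test (0.56 ± 0.22, 95% interval 0.01 to 1.12, adjusted p = 0.243). CD34 positive cells exceeded Mts24 positive cells by 0.84 ± 0.16 (adjusted p = 0.0263), whereas Mts24 positive minus CD34 negative (0.32 ± 0.16, adjusted p = 0.229) and CD34 negative minus Mts24 negative (0.27 ± 0.16, adjusted p = 0.381) did not pass. The Mts24 call sat at the threshold: it was lost with the pool as a random block (adjusted p = 0.0625), with median centring (0.55, adjusted p = 0.0719), with no filter (adjusted p = 0.0519) and without the WT Mts24 negative (0.56, adjusted p = 0.186), K14Snail Mts24 negative (0.63, adjusted p = 0.170) or K14Snail Mts24 positive array (0.37, adjusted p = 0.187). The excess over Mts24 positive cells was lost without any 1 of the 6 arrays other than CD34 negative (0.61 to 1.06, adjusted p from 0.0507 to 0.106).

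Cd44 varied least of the 5 genes, with a range of 1.03 over the 8 arrays. CD34 positive cells held it at 12.65 in K14Snail and 11.85 in WT, and CD34 negative cells at 12.20 and 11.97. Mts24 positive cells held it at 12.71 in K14Snail and 12.20 in WT, and Mts24 negative cells at 12.00 and 11.67. In the CD34 sort the arrays overlapped and the genotypes ran in opposite directions, with a positive minus negative difference of 0.45 in K14Snail and -0.12 in WT. The CD34 comparison accordingly did not pass (0.16 ± 0.15, 95% interval -0.20 to 0.53, limma adjusted p = 0.483). In the Mts24 sort Cd44 rose by 0.62 ± 0.15 (1.53-fold, adjusted p = 0.0317, 2 of 2 pairs). No other pair of fractions passed for Cd44, and the steps in the 2 sorts did not differ by the test (-0.45 ± 0.21, 95% interval -0.97 to 0.06, adjusted p = 0.312). The Mts24 call was lost with the pool as a fixed block (adjusted p = 0.0625) and without any 1 of the 4 Mts24 arrays (0.52 to 0.71, adjusted p from 0.100 to 0.194), and without the WT CD34 positive array Cd44 passed in CD34 positive over Mts24 negative cells (0.64, adjusted p = 0.0178).

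Thy1 ran the other way and was lower in the positive fraction of both sorts. It stood at 8.50 in K14Snail and 8.69 in WT CD34 positive cells, against 10.52 and 10.62 in CD34 negative cells. It stood at 9.21 in K14Snail and 9.50 in WT Mts24 positive cells, against 10.53 and 10.60 in Mts24 negative cells. The negative fractions were level with each other, with CD34 negative minus Mts24 negative at 0.01 ± 0.09 (95% interval -0.22 to 0.23, limma adjusted p = 0.974), and the positive fractions did not overlap with them or with each other. Thy1 fell by 1.98 ± 0.09 in the CD34 sort (3.94-fold lower in CD34 positive cells, adjusted p = 0.000211). It fell by 1.21 ± 0.09 in the Mts24 sort (2.31-fold lower in Mts24 positive cells, adjusted p = 0.00150). CD34 positive cells lay below Mts24 positive cells, at -0.76 ± 0.09 (adjusted p = 0.00721). The CD34 step exceeded the Mts24 step, with a difference of -0.77 ± 0.13 (adjusted p = 0.0321), a call lost with the pool as a fixed block (adjusted p = 0.0817) and without any 1 of the 8 arrays (-0.68 to -0.85, adjusted p from 0.0505 to 0.141).

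T cell markers moved with Thy1 between positive and negative fractions, but in a different order between the positive fractions. All 9 tested T cell markers fell in the CD34 sort (median -1.90, against -0.03 over all tested genes) and all 9 fell in the Mts24 sort (median -2.69, against 0.02). Of all tested genes 13.4% fell in the CD34 sort and 13.5% in the Mts24 sort. Cd3d reached the filter level on 2 arrays and Ptprc, Il2rb and Ctsw on 4, so these genes could pass it through negative fractions alone. A fall of such genes is fixed by the filter and supports nothing. The signalling chain gene Cd3g stood at -2.40 ± 0.27 in the CD34 sort and -4.16 ± 0.27 in the Mts24 sort (limma adjusted p = 0.00250 and 0.00122). The cytotoxic granule gene Nkg7 stood at -2.61 ± 0.28 and -4.25 ± 0.28 (adjusted p = 0.00200 and 0.00119). Cd3g reached the filter level on 6 arrays and Nkg7 on 5, so falls to arrays under it depend in size on the array background. The mean level of the 9 T cell markers was 8.01 in K14Snail and 7.62 in WT CD34 positive cells, and 7.09 and 7.22 in Mts24 positive cells. By this mean the T cell markers were lowest in Mts24 positive cells, while Thy1 was lowest in CD34 positive cells. Of these means only that of K14Snail CD34 positive cells was above the filter level. Among the 9 markers only Cd7 reached it on all 8 arrays, as Thy1 did. The order of the T cell means thus rests in part on values near the array background. For the difference between the steps, 9 of 9 T cell markers had a positive sign (median 0.88, 0 passed) where Thy1 had a negative one. The log2 summed level of the list was 11.71 in K14Snail and 11.21 in WT CD34 positive cells, against 13.25 and 13.78 in CD34 negative cells. It was 10.44 in K14Snail and 10.62 in WT Mts24 positive cells, against 13.66 and 14.18 in Mts24 negative cells. Of 10 fibroblast markers, which also accompany Thy1 in other tissue, 5 were tested and 0 fell in either sort: 3 rose in the CD34 sort, the matrix genes Fbln1 (2.71 ± 0.20, limma adjusted p = 0.000619), Col1a2 (0.95 ± 0.09, adjusted p = 0.00152) and Fbln2 (0.84 ± 0.12, adjusted p = 0.00509). In the Mts24 sort 2 rose, Fbln1 (0.72 ± 0.20, adjusted p = 0.0456) and Fbln2 (0.48 ± 0.12, adjusted p = 0.0350). The shares of all tested genes that rose were 13.4% in the CD34 sort and 12.8% in the Mts24 sort. The levels were mixed. Fbln1 (8.42 to 11.49) and Col1a1 (7.80 to 8.78) were above the filter on all 8 arrays and Col1a2 (7.62 to 8.68) on 7. Fbln2 (7.34 to 8.67) reached it on 4 arrays and Col3a1 (7.30 to 7.79) on 2. Fbln2 could pass it through positive fractions alone, so its rise may be fixed by the filter. The 5 untested genes, among them Pdgfra (6.21 to 6.79) and Lum (3.72 to 3.95), were under it on all arrays. The part of T cells in the Thy1 result was not tested, and in such bulk samples fewer cells of a type and less RNA per cell cannot be told apart.

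**Figure D2:**
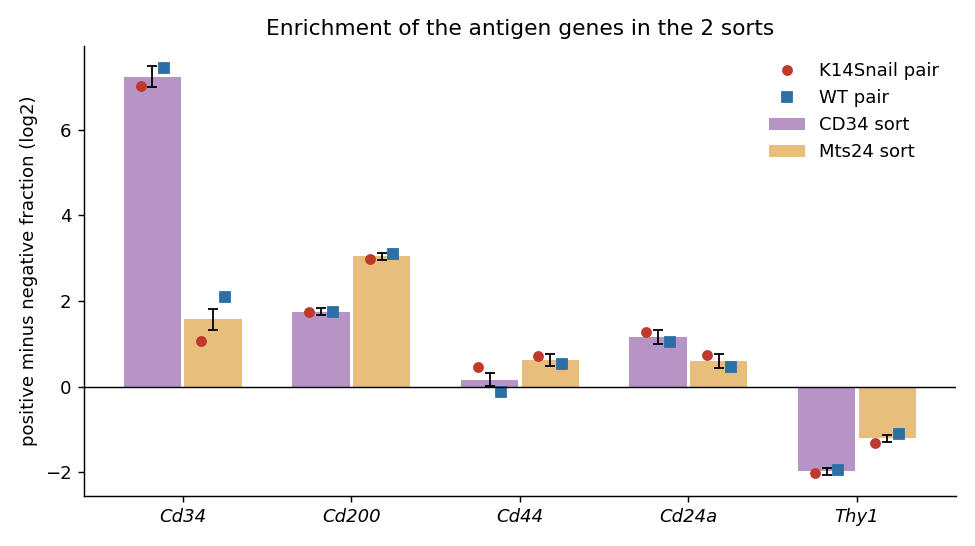
Positive minus negative fraction (log2, vertical axis) of each antigen gene in the CD34 sort (purple bars) and the Mts24 sort (orange bars); bars are the limma estimate, error lines its moderated standard error, and points the K14Snail pair (red circles) and the WT pair (blue squares). Cd200 steps up by 1.75 in the CD34 sort and 3.04 in the Mts24 sort, while Thy1 steps down by 1.98 and 1.21.

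Counted together, 3 of the 5 genes rose in CD34 positive cells (Cd34, Cd200 and Cd24a) and 1 fell (Thy1), where 13.4% of all tested genes rose and 13.4% fell (26.8% called in all). In Mts24 positive cells 4 rose (Cd34, Cd200, Cd44 and Cd24a) and 1 fell (Thy1), where 12.8% of tested genes rose and 13.5% fell (26.3% called in all). The step differed between the sorts for 3 of the 5, Cd34, Cd200 and Thy1, where 4.74% of tested genes were called (2.69% higher and 2.05% lower). Between the positive fractions 3 of 5 were called (13.1% of tested genes, 8.44% higher and 4.69% lower), between the negative fractions 2 of 5, Cd34 and Cd200 (0.0466%, which is 5 genes, with 0.0373% higher and 0.00933% lower). CD34 positive over Mts24 negative cells called 4 of 5 (40.8% of tested genes, 21.9% higher and 18.9% lower), and Mts24 positive over CD34 negative cells 3 of 5 (13.0%, 5.50% higher and 7.48% lower). The genes were chosen as stem cell antigens, so a share above the background is a description of the choice. The direction of Cd34 was fixed by the antibody to its own product in every comparison that uses a CD34 fraction. These are the CD34 sort, the difference between the steps and the comparisons across the sorts. There Cd34 checks the sort and is no further result. Cd34 is itself the 1 gene called lower between the negative fractions.

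K14Snail and WT cells were compared over the 4 fractions for the effect of the Snail transgene on these antigens. None of the 5 genes passed, where 0.382% of tested genes did (41 genes by limma, 0.177% higher and 0.205% lower). At an unadjusted p under 0.05 there were 4 of the 5, against 20.3% of all tested genes, and 0 of the 5 passed with the pool as a random block. Cd44 was higher in K14Snail in 4 of 4 pairs, by 0.80 in CD34 positive, 0.23 in CD34 negative, 0.51 in Mts24 positive and 0.32 in Mts24 negative cells (mean 0.47 ± 0.10, limma adjusted p = 0.121). Cd200 was higher in 4 of 4 pairs by similar amounts, 0.29, 0.28, 0.19 and 0.31 in the same order of fractions (mean 0.27 ± 0.06, adjusted p = 0.108). Cd24a was lower in 4 of 4 pairs, at -0.64, -0.87, -0.22 and -0.51 (mean -0.56 ± 0.11, adjusted p = 0.103). Thy1 differed by -0.07 to -0.29 (mean -0.16 ± 0.06, adjusted p = 0.237). Across all tested genes 31.6% kept one sign in all 4 pairs. The 95% interval of the mean ran from 0.21 to 0.72 for Cd44 and from -0.84 to -0.29 for Cd24a.

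Cd34 itself had no common genotype direction. It was lower in K14Snail in the positive fractions, at -0.28 with the CD34 antibody and -0.56 with Mts24, and higher in the negative ones, at 0.15 with the CD34 antibody and 0.48 with Mts24. Its mean difference was -0.05 ± 0.17 (95% interval -0.48 to 0.37, limma adjusted p = 0.875). The term for genotype by positive fraction was -0.73 ± 0.18 (unadjusted p = 0.00833, adjusted p = 0.286), which did not pass over all genes. In the Mts24 sort, where all 4 arrays were above the filter, the step was 1.06 in K14Snail against 2.09 in WT. In the CD34 sort both negative arrays were under the filter level, so the steps there are not compared between genotypes, and the term, which uses them, is limited in the same way. Cd44 leaned the other way (0.38 ± 0.15, adjusted p = 0.506). For genotype by positive fraction 0 of the 5 genes passed with limma, 1 had an unadjusted p under 0.05, and 0% of tested genes were called (9.89% at an unadjusted p under 0.05). For genotype by sort 0 of the 5 passed, 0 had an unadjusted p under 0.05, and 0% of tested genes were called (4.07% at an unadjusted p under 0.05), with Cd24a at -0.39 ± 0.17 (adjusted p = 0.917).

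**Figure D3:**
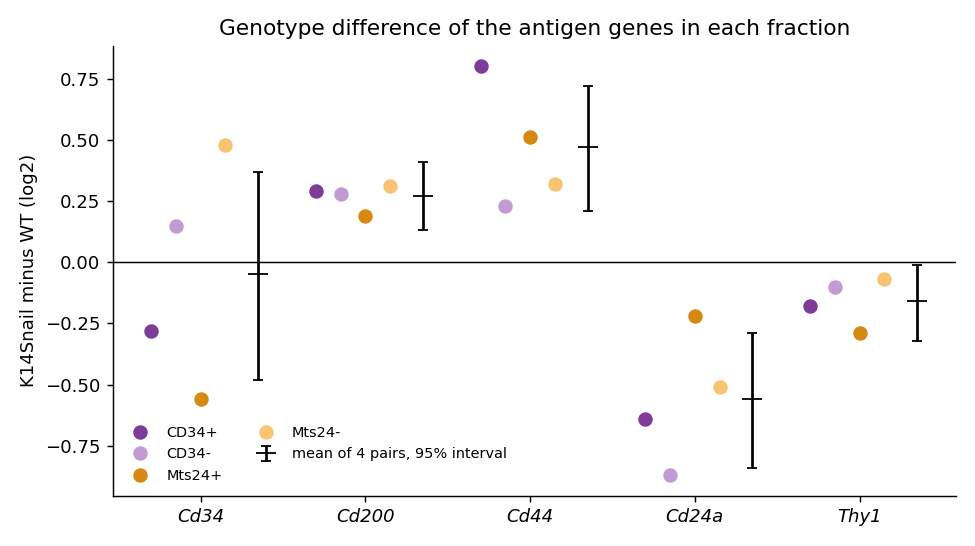
K14Snail minus WT (log2, vertical axis) of each antigen gene in the CD34+, CD34-, Mts24+ and Mts24- pairs of arrays (coloured points), with the mean of the 4 pairs and its 95% interval from limma in black. Cd44 and Cd200 lie above 0 in all 4 pairs and Cd24a and Thy1 below it, while Cd34 runs from -0.56 in Mts24+ to 0.48 in Mts24- cells.

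Markers of other cells moved in part with 2 of these differences, those of Cd44 and Cd24a. Of all tested genes 0.382% were called for genotype. Myeloid and Langerhans cell markers, leukocytes that also carry CD44, had a mean level of 8.68 in K14Snail against 7.35 in WT CD34 positive cells and of 8.63 against 7.29 in Mts24 positive cells, the fractions where Cd44 differed most. In CD34 negative cells they had 8.50 in K14Snail and 8.91 in WT, and in Mts24 negative cells 8.99 and 9.00, while Cd44 was still higher in K14Snail there. Of 10 such markers 8 were tested and 0 passed for genotype (median 0.51, against 0.02 over all tested genes), and the log2 summed level ran from 12.94 to 13.59 on K14Snail arrays and from 11.50 to 13.63 on WT arrays. Sebaceous gland markers were at a mean level of 7.47 in K14Snail against 9.56 in WT CD34 positive cells, 7.46 against 9.24 in CD34 negative cells, 8.42 against 8.50 in Mts24 positive cells and 8.09 against 8.72 in Mts24 negative cells. The Cd24a difference was likewise larger in the 2 CD34 fractions than in the 2 Mts24 fractions, and smallest in Mts24 positive cells. Of 8 sebaceous markers 7 had a probe set, 6 were tested and 0 passed for genotype (median -1.44). Of these, Mc5r reached the filter level on 3 arrays and Pparg on 2. The log2 summed level of the list was 11.93 to 13.29 on K14Snail arrays and 12.67 to 13.70 on WT arrays. Suprabasal epidermis markers, of differentiating keratinocytes, had a mean level of 11.40 in K14Snail against 12.38 in WT CD34 positive cells. In CD34 negative cells, where Cd24a differed most, they were at 12.47 in both genotypes. They were at 12.17 against 12.42 in Mts24 positive and 12.88 against 12.83 in Mts24 negative cells. Of 9 tested, 0 passed for genotype (median -0.26). In both sorts 8 of 9 had a negative sign (medians -0.59 and -0.62), while Cd24a rose. The part of these cells in the Cd44 and Cd24a differences was not tested.

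**Figure D4:**
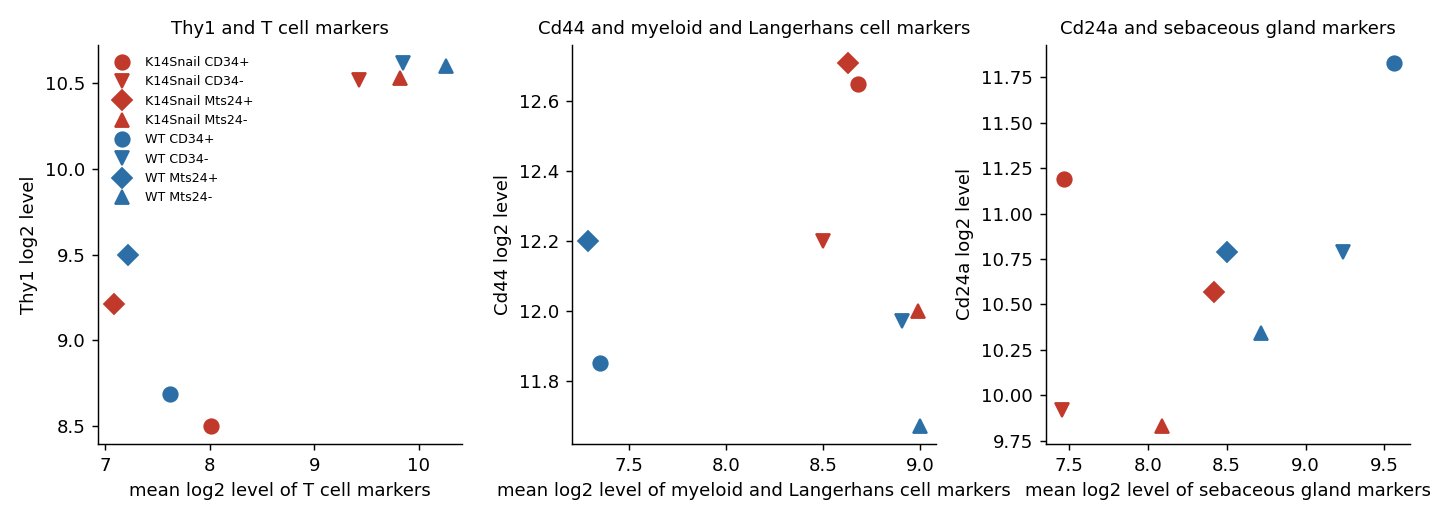
Log2 level of Thy1, Cd44 and Cd24a (vertical axes) against the mean log2 level of T cell, myeloid and Langerhans cell, and sebaceous gland markers (horizontal axes) on the 8 arrays; red is K14Snail, blue is WT, and the symbol gives the fraction. Thy1 separates negative from positive fractions as the T cell markers do, but CD34+ arrays have the lower Thy1 (8.50 and 8.69) and Mts24+ arrays the lower T cell markers (7.09 and 7.22). Those T cell means lie under the filter level, so their order rests in part on values near the array background.

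Of 24 other surface proteins used to sort or locate skin stem and progenitor cells 22 were tested. In CD34 positive cells 4 rose, 2 fell and 16 did not pass, a share near the 26.8% called over all tested genes (median 0.28, against -0.03). In Mts24 positive cells 10 rose, 1 fell and 11 did not pass, where 12.8% of all tested genes rose and 13.5% fell (median 0.49, against 0.02). The step differed between the sorts for 3 of the 22, with 1 larger in the CD34 sort, 2 lower and 19 that did not pass, where 4.74% of all tested genes were called. Plet1, whose product the Mts24 antibody binds, is among the 10 that rose and the 2 with a lower step, directions that the sort fixed. Alcam, an adhesion molecule of the immunoglobulin family, was at 12.41 in K14Snail and 11.60 in WT CD34 positive cells, against 9.47 and 9.25 in CD34 negative cells. It was at 11.47 in K14Snail and 11.05 in WT Mts24 positive cells, against 9.52 and 8.75 in Mts24 negative cells. Like Cd200 it was higher in both positive fractions, and rose by 2.64 ± 0.16 in the CD34 sort and 2.12 ± 0.16 in the Mts24 sort (limma adjusted p = 0.000410 and 0.00163). The bulge receptor Lgr5 was at 12.23 in K14Snail and 12.38 in WT CD34 positive cells, against 7.07 and 6.87 in CD34 negative cells, both under the filter level. Its rise of 5.33 ± 0.25 in the CD34 sort (adjusted p = 0.000226) and the difference of 4.36 ± 0.36 between its steps (adjusted p = 0.00726) therefore depend in size on the array background, as those of Cd34 do. The upper follicle gene Lrig1, a restraint on growth factor receptors, rose by 2.17 ± 0.30 in the Mts24 sort (adjusted p = 0.00668). The transferrin receptor gene Tfrc, whose product is low on slowly cycling keratinocytes, fell by 1.18 ± 0.21 in the CD34 sort and by 0.88 ± 0.21 in the Mts24 sort (adjusted p = 0.0102 and 0.0288). The TNF receptor family gene Tnfrsf19 fell by 1.95 ± 0.09 in CD34 positive cells (adjusted p = 0.000226) and stood at -0.03 ± 0.09 in the Mts24 sort (adjusted p = 0.858), a difference between the steps of -1.92 ± 0.13 (adjusted p = 0.00449). For genotype 0 of the 22 passed.

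**Figure D5:**
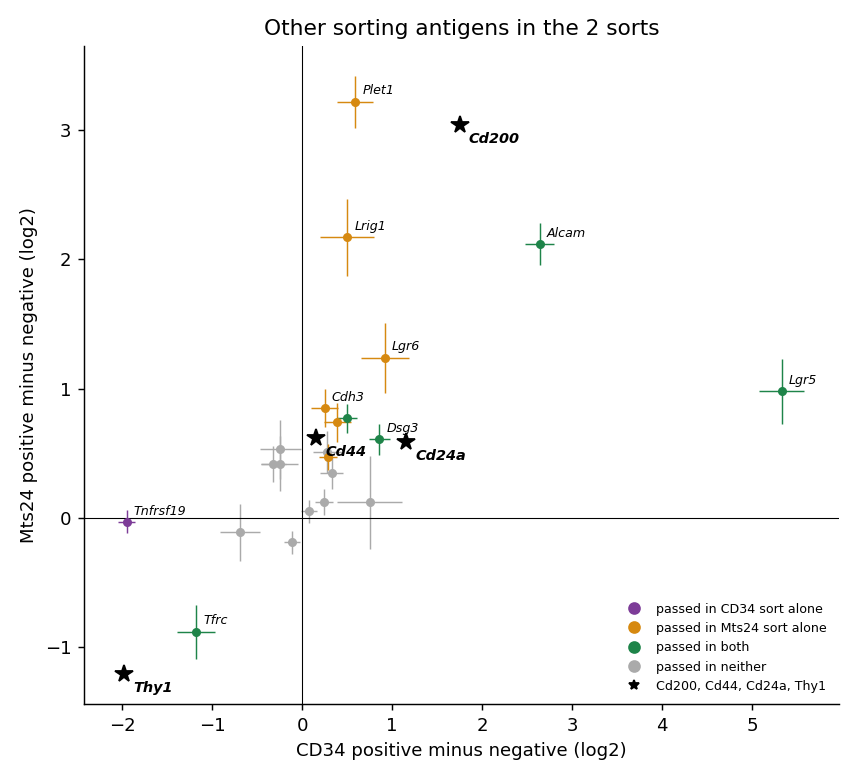
Positive minus negative fraction (log2) of 22 other sorting antigens in the CD34 sort (horizontal axis) and the Mts24 sort (vertical axis), with moderated standard errors; colours give the sort in which a gene passed, black stars mark Cd200, Cd44, Cd24a and Thy1, and Cd34, at 7.24 and 1.57, lies outside the frame. Lgr5 lies far right at 5.33, Plet1 and Cd200 high at 3.22 and 3.04, and Thy1 low in both.

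Among the partners of these antigens the CD200 receptors and the CD34 relatives were dim. The 4 CD200 receptor genes with a probe set were at 3.55 to 4.61 on all arrays and none was tested, and of the CD34 relatives Podxl (5.79 to 6.26) and Podxl2 (6.43 to 7.10) also failed the filter. Of 17 listed gene symbols for hyaluronan enzymes, CD44 ligands and other hyaluronan binders 13 had a probe set and 5 were tested. Cemip2 was listed also under its older symbol Tmem2, which had no probe set. In the CD34 sort 3 of these rose and 0 fell, where 13.4% of all tested genes rose and 13.4% fell, and in the Mts24 sort 1 rose and 0 fell, where 12.8% rose and 13.5% fell. Cemip2, a cell surface protein that cleaves hyaluronan, rose by 0.92 ± 0.16 in the CD34 sort (limma adjusted p = 0.00993) and stood at 0.24 ± 0.16 in the Mts24 sort (adjusted p = 0.313). Hyal3, of the hyaluronidase family, rose in both, by 0.39 ± 0.10 in the CD34 sort and 0.69 ± 0.10 in the Mts24 sort (adjusted p = 0.0306 and 0.00684). The hyaluronan synthase Has2 rose by 2.18 ± 0.32 in CD34 positive cells (4.53-fold, limma adjusted p = 0.00558): it was at 9.35 in K14Snail and 7.62 in WT CD34 positive cells, against 6.64 and 5.96 in CD34 negative cells. Mts24 positive cells held it at 7.72 in K14Snail and 6.15 in WT, against 6.42 and 5.87 in Mts24 negative cells. It passed the filter through 2 arrays, both of K14Snail positive fractions, so its differences had to favour these and their size depends on the background. Its genotype difference of 1.13 ± 0.22 did not pass (adjusted p = 0.102), and the synthases Has1 (6.48 to 7.31) and Has3 (6.06 to 7.30) were not tested.

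The 5 tested genes for CD44 splicing and for the proteins that tie CD44 to the cytoskeleton all passed in both sorts, in the same direction in each. Of all tested genes 26.8% were called in the CD34 sort and 26.3% in the Mts24 sort. Esrp1 and Esrp2, splicing regulators that favour epithelial forms of CD44, fell in the CD34 sort by 0.46 ± 0.08 and 0.99 ± 0.13 (limma adjusted p = 0.00994 and 0.00408). In the Mts24 sort they fell by 0.41 ± 0.08 and 0.69 ± 0.13 (adjusted p = 0.0181 and 0.0165). The linker gene Ezr fell as well, by 0.55 ± 0.10 and 0.42 ± 0.10 in the CD34 and Mts24 sorts. Its relatives Msn, at 1.08 ± 0.10 and 0.93 ± 0.10 (adjusted p = 0.00138 and 0.00375), and Rdx, at 0.58 ± 0.08 and 0.45 ± 0.08, rose. For none of the 5 did the steps differ between the sorts by the test. For genotype 0 of 5 passed, with Msn closest at 0.61 (adjusted p = 0.0507). The arrays give 1 value per gene here, so forms of Cd44 that differ in splicing were not separated.

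Ly6a has many relatives with the same Ly6 fold, of which 27 of 30 listed had a probe set and 13 were tested. In CD34 positive cells 1 rose and 5 fell (median -0.65), where 13.4% of all tested genes rose and 13.4% fell. In Mts24 positive cells 0 rose and 1 fell (median -0.22), fewer than the 12.8% and 13.5% over all tested genes. The basal epidermis gene Ly6d fell by 1.12 ± 0.15 in the CD34 sort (limma adjusted p = 0.00475) and stood at 0.08 ± 0.15 in the Mts24 sort (adjusted p = 0.760), a tested difference of -1.20 ± 0.22 (adjusted p = 0.0418). The 1 that rose, Lypd6, a modulator of Wnt signalling, was at 8.30 in K14Snail and 8.66 in WT CD34 positive cells, against 6.93 and 6.28 in CD34 negative cells. It passed the filter through those 2 CD34 positive arrays alone, so it had to differ and its rise supports nothing. Ly6g6e fell in both sorts, by 1.45 ± 0.27 and 1.10 ± 0.27 (adjusted p = 0.0123 and 0.0326). Close relatives of this family can share probe signal, so these values are uncertain. Of the 4 tested THY1 and CD24 ligand genes 0 passed in the CD34 sort, and in the Mts24 sort Adgre5, which encodes the adhesion receptor CD97, rose by 1.31 ± 0.21 (adjusted p = 0.0106).

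The genes most like each antigen over the 8 arrays were taken from 2864 tested genes with a range of at least 1 log2. Closest to Cd34 were the bulge transcription factor Lhx2 (Pearson r = 0.966), the BMP antagonist Grem1 (0.957) and the cytokine receptor Il31ra (0.950). Closest to Cd200 were the activin antagonist Fst (r = 0.994), the vitamin D receptor Vdr (0.993), needed for hair cycling, and the integrin Itgb8 (0.991). Closest to Cd24a were the ceramide synthase Cers5 (r = 0.986), Fjx1 (0.985) and Gkap1 (0.981). Closest to Cd44 were the primase subunit Prim2 (r = 0.987), the necroptosis kinase Ripk3 (0.986) and the DNA glycosylase Neil3 (0.982). Closest to Thy1 were Zfp667 (r = 0.997), Rab27a, which moves secretory vesicles and melanosomes (0.994), and Foxn3 (0.994). These values describe 8 arrays that fall into 4 fractions, and the arrays were not independent. With Spearman's rho the lists changed, and 1 of the 3 genes stayed for Cd24a and 0 for the others. Up to 17 genes tied for the highest value, and the 3 listed were taken from such ties by their order. Grem1, with a rho of 1.0 to Cd34, was left out in this way. Among the antigens themselves Thy1 opposed Cd200 (r = -0.88), Cd34 (-0.83) and Cd24a (-0.78), Cd34 and Cd200 had r = 0.60, and Cd44 and Cd24a 0.05.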

How the data were processed

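Total RNA of sorted, pooled cells was amplified with a whole-transcript kit, biotin-labelled and hybridised to Affymetrix arrays, as the labels' protocols state. For 28874 probe sets the authors deposited log2 values made with RMA, per the submitters' processing notes. No source used here gives the RMA version or a genome build. These values run from 3.04 to 14.49, array medians from 7.32 to 7.42, and the number of arrays limits the precision.

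The platform annotation gave 21789 probe sets 1 gene symbol, and 21698 matched RefSeq by Entrez identifier. A gene was tested when at least 2 arrays reached 7.70, the median of named genes. Limma 3.58.1 (R 4.3.3, statmod 1.5.0) was fitted with the 4 fractions and genotype (3 residual and 2.75 prior degrees of freedom), with 1 further term for each interaction (2 residual degrees of freedom), and p-values were adjusted by Benjamini-Hochberg over 10720 genes at 0.05. The pool was left out of the model because the labels do not say that both fractions of a sort came from the same mice; its estimated correlation was -0.175. The main model was tested on simulated arrays with independent noise, no other fraction differences and no pool effect. For the 2 sorts and the genotype 73% to 88% of changes of 1 log2 were recovered, with 7 to 11 false calls. Smaller changes, the interaction terms and the difference between the steps were not simulated. Tables and plots used Python 3.11.15, pandas 2.3.3, numpy 2.4.6 and matplotlib 3.10.9. The text names the antigens, up to 4 called genes per list and comparison with the largest differences plus main partners, and the 3 most similar genes per antigen. Genes and lists were chosen with earlier results of these data known. Alternatives covered the pool, normalization, filter, prior, probe sets and left-out arrays.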

Additional observations from a re-analysis of the deposited data

Results flagged for a closer look

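The step from negative to positive fraction differed between the CD34 and Mts24 sorts for 3 antigen genes by limma. That of Cd34 was larger in the CD34 sort by 5.66 ± 0.35 (adjusted p = 0.00449), in a sort made with an antibody to its own product, which fixes the direction. Its CD34 negative arrays were under the filter level of 7.70, so the size depends on the array background. That of Cd200 was smaller in the CD34 sort, with a difference of -1.29 ± 0.11 (adjusted p = 0.00794), a call lost without the WT CD34 negative or the K14Snail Mts24 negative array (adjusted p = 0.0527 and 0.0505). That of Thy1 had a difference of -0.77 ± 0.13 (adjusted p = 0.0321), with the deeper fall in the CD34 sort. This call was kept in 0 of the 8 fits that left out 1 array (adjusted p from 0.0505 to 0.141) and was lost with the pool as a fixed block (adjusted p = 0.0817). The sorts came from different mouse pools, so sort and pool cannot be told apart.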

How the results depend on the processing

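With 1 array per group no value has a replicate of its own kind, and the CD34 and Mts24 values rest on 2 pairs. Cd34, Cd200, Cd24a and Thy1 in the CD34 sort and Cd200 and Thy1 in the Mts24 sort kept direction and call under all 16 alternatives. Of 775 antigen values under alternatives 707 kept direction and call, 45 lost a call, 1 gained one and 22 changed sign. In the Mts24 sort Cd24a lost its call with the pool as a random block (0.59), median centring (0.55) and no filter (0.59), and Cd44 with the pool as a fixed block (0.62). With median centring, genotype by sort became -0.03 for Cd200 and -0.03 for Thy1; neither was called. Genes called for K14Snail against WT numbered 41, but 220 with the pool as a random block, 63 with no filter, 78 with a trended robust prior, 1 without the CD34 sort and 0 without the Mts24 sort. Those for the difference between the sort steps numbered 508, but 232 with the pool as a fixed block. Those between the negative fractions numbered 5, but 2 with quantile normalization and 12 with a trended robust prior. For genotype by positive fraction 0 became 1 with no filter and 3 with a trended robust prior. The cause of these shifts was not tested. No paired analysis by replicate number was possible because each group has 1 array.

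Leaving out 1 array leaves 2 residual degrees of freedom. In the Mts24 sort the values ran from 1.22 to 1.93 for Cd34, 0.52 to 0.71 for Cd44 and 0.37 to 0.82 for Cd24a. Cd44 in the CD34 sort ran from -0.06 to 0.38 and between the positive fractions from -0.42 to 0.02, Thy1 between the negative fractions from -0.05 to 0.07, and Cd34 for genotype from -0.23 to 0.11. Genotype by sort ran from -0.54 to 0.49 for Cd34, -0.03 to 0.09 for Cd200, -0.18 to 0.38 for Cd44 and -0.07 to 0.15 for Thy1. Genes called ran from 1332 to 2531 in the CD34 sort, 783 to 3198 in the Mts24 sort, 2 to 23 for genotype, 74 to 929 for the difference between the steps and 0 to 728 for genotype by positive fraction. They ran from 257 to 1214 between the positive fractions, 0 to 20 between the negative ones, 2415 to 4159 for CD34 positive against Mts24 negative cells and 148 to 1793 for Mts24 positive against CD34 negative cells.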
